A study of Mus musculus with 26 samples.

Results

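The genes described here are 10 that take up, break down, store or export heme and iron: Hmox1, Blvrb, Slc48a1, Hpx, Fth1, Ftl1, Slc40a1, Tfrc, Slc11a1 and Nqo1. They were chosen by symbol and are 10 of the 31053 genes counted. They were followed in microglia sorted from the somatosensory (S1) cortex of wild-type C57Bl/6N mice, which make up 18 of the 26 libraries of the series. The other 8 libraries hold nuclei and were not analysed here. All dams were injected into the peritoneum at E12.5, either with saline or with poly(I:C), an artificial RNA duplex that mimics a virus and causes maternal immune activation (MIA). At E13.5 and at E15.5 (E13 and E15 in the sample labels) there were 3 libraries after saline and 3 after MIA, each from pooled embryos of both sexes. At postnatal day 14 (P14) there were 4 libraries after saline (replicates 1, 2, 3F and 3M) and 2 after MIA. The labels give 3F and 3M as the female and the male of replicate 3, and each is counted as a library of its own in the tests. The study's sample table gives the P14 libraries as pools of littermates of both sexes, except for 3F, a single female, and 3M, a single male. Its text counts the P14 mice as if each library came from a single animal, so whether the others were pools is uncertain. Cells were sorted as Cd11b+, Cx3cr1+ and Cd45low after the meninges had been removed, and each library was made with a droplet kit that counts the 3′ ends of transcripts by unique molecular identifier (UMI).

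Microglia engulf dying cells and debris, and the heme and iron in what they engulf has to be dealt with. Slc48a1 moves heme out of the lysosome, Hmox1 (heme oxygenase 1) opens the heme ring and frees its iron, and Blvrb reduces biliverdin, the product. Fth1 and Ftl1 are the heavy and light chains of ferritin, the cage that stores iron, Slc40a1 (ferroportin) is the only known iron exporter of mammalian cells, Tfrc (transferrin receptor) brings iron in, and Slc11a1 (Nramp1) moves metal ions out of the phagosome. Hpx (hemopexin) is a plasma protein that binds free heme, and Nqo1 is a quinone reductase that, like Hmox1 and the ferritins, is a classical target of the transcription factor Nrf2 and its competitor Bach1.

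Of these transcripts, 4 carry a short hairpin, the iron-responsive element, that links them to the iron state of a cell. When iron is scarce, iron regulatory proteins hold the hairpin. Near the start of a transcript this blocks translation, and after the coding sequence it protects the transcript from decay, so that ferritin and ferroportin on the one side and the transferrin receptor on the other are controlled in opposite directions. The elements are shown because they are a sequence feature that these 4 members share and the other members lack. Protein and translation were not measured here, and whether the elements bear on the transcript levels given further on was not tested. They were found in GENCODE vM21 transcripts (mouse build GRCm38, the same assembly as mm10) on the strand of the transcript, as a loop of the letters CAGTGN in capitals, 5 pairing bases on each side of it (G with T allowed) and an unpaired c before them. Every sequence is 28 bases long and lies within the named UTR and within 1 exon.
Fth1, 5′ UTR, chr19:9982733-9982760, plus strand: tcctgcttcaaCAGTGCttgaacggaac
Ftl1, 5′ UTR, chr7:45459779-45459806, minus strand: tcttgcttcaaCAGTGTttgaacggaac
Slc40a1, 5′ UTR, chr1:45925465-45925492, minus strand: aacttcagctaCAGTGTtagctaagttt
Tfrc, 3′ UTR, chr16:32631220-32631247, plus strand: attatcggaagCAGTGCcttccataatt
Tfrc, 3′ UTR, chr16:32631599-32631626, plus strand: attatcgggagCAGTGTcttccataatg
Tfrc, 3′ UTR, chr16:32631664-32631691, plus strand: tatatcggagaCAGTGAtctccatatgt
Tfrc, 3′ UTR, chr16:32631711-32631738, plus strand: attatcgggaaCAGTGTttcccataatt
Fth1, Ftl1 and Slc40a1 held 1 element each and Tfrc held 4, and the UTRs of the other members held no match. The same pattern was found in the 5′ UTRs of 31 of 20899 genes, or 0.148%, and in the 3′ UTRs of 129 of 21685 genes, or 0.595%. A match describes these letters and is not a measured site.

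In GRCm38 the genes lie at chr8:75093621-75100589 (Hmox1), chr7:27447978-27466144 (Blvrb), chr15:97778520-97792692 (Slc48a1), chr7:105591613-105600137 (Hpx), chr19:9980598-9985098 (Fth1), chr7:45457944-45459884 (Ftl1), chr1:45908068-45926523 (Slc40a1), chr16:32608920-32632794 (Tfrc), chr1:74375195-74386062 (Slc11a1) and chr8:107388225-107403206 (Nqo1). All are protein-coding. Fth1 and Ftl1 have near-identical copies among the genes counted, such as Ftl1-ps1, so their counts are uncertain to the extent that reads were split among copies.

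The deposited tables held 73356 cell barcodes, of which 67847 passed a filter of 500 genes or more and no more than 20% of UMIs from mitochondrial genes. Some barcodes occurred in several libraries, most of all those of the small libraries E13.5 MIA 1 and E13.5 MIA 2. A shared barcode was kept only in the library where it had most UMIs, which removed 1831 cells in all and between 0.357% and 16.2% of a library. In E15.5 MIA 3 it removed 238 of 1471 cells, 212 of them shared with E13.5 MIA 2. In P14 saline 3F the removed cells held Hmox1 at 176 UMIs per 1e6 UMIs counted (CPM), against 26.0 CPM in the cells that stayed, so the P14 levels, shares and classes are also given with shared barcodes kept. Of the 66016 remaining cells, 61740 were taken as microglial because at least 1% of their UMIs came from 12 microglial marker genes and these outnumbered markers of neurons and red blood cells. In 4965 cells that marker share lay near the limit. The libraries held between 264 and 5752 microglial cells and between 5863380 and 102779003 UMIs in them, and the median cell held from 3716 to 26247.5 UMIs. All 12 microglial markers were found in every library.

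Hmox1 and the ferritin chains were much lower in P14 than in E15.5 microglia, Slc48a1, Blvrb and Slc11a1 were lower by less, and Tfrc was higher. Leaving out Nqo1, which passed the filter on low counts only through the embryonic groups, 6 of the 8 members tested fell, 1 rose (Tfrc) and 1 did not pass (Slc40a1), after saline and after MIA alike (edgeR quasi-likelihood test, Benjamini-Hochberg adjusted p under 0.05). Of all 14452 genes tested, 50.4% were called after saline, 25.8% as lower and 24.7% as higher, and 36.4% were called after MIA, 18.6% as lower and 17.8% as higher. The median log2 fold change was -0.94 after saline and -0.98 after MIA over these 8 members, beside 0.03 and 0.00 over all genes. Age cannot be told apart from the day of sorting or library preparation, and in summed libraries fewer cells with a gene and less of its RNA per cell cannot be told apart.

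**Figure D1:**
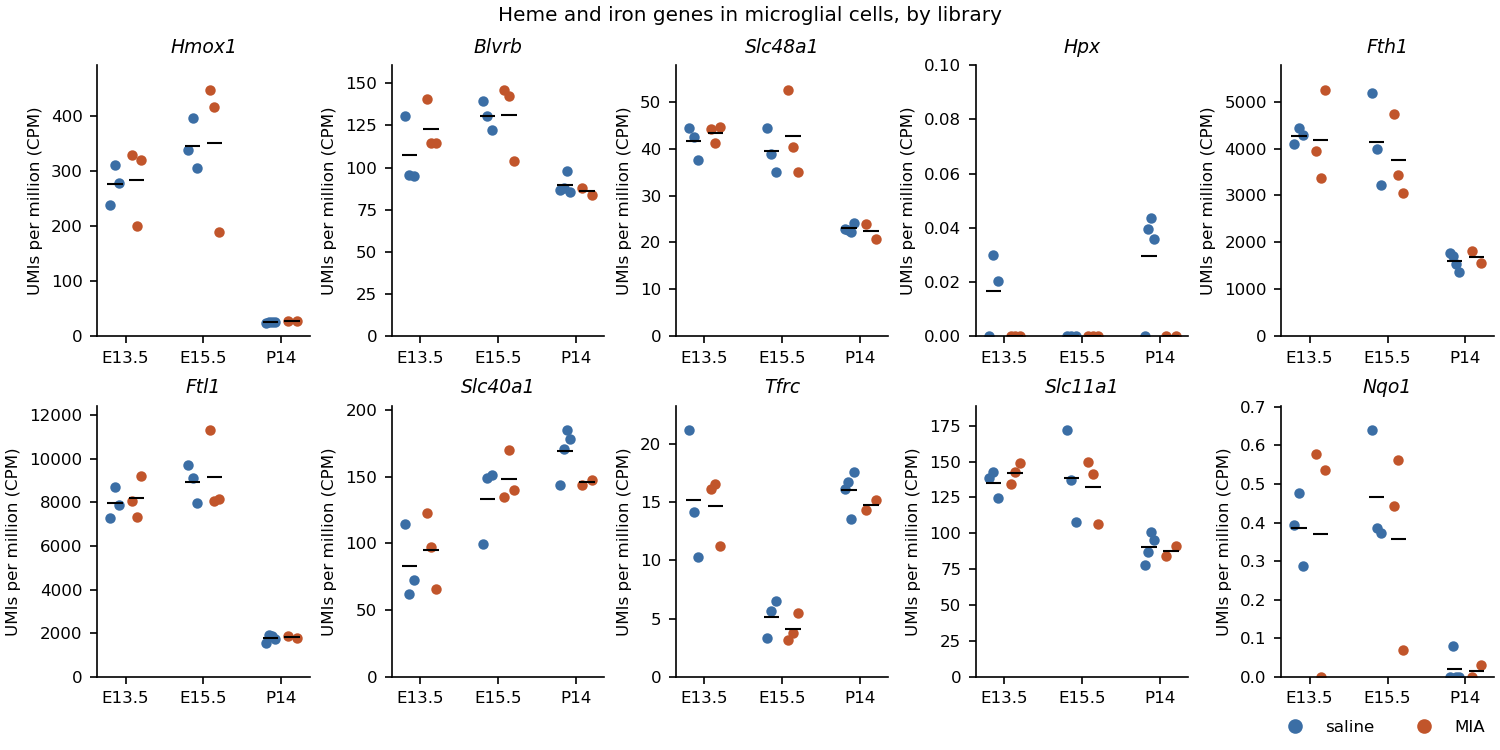
Level of each gene, in CPM of the UMIs of microglial cells, in each of the 18 libraries by age and treatment, with 1 point per library and a bar at the group mean. The P14 points of Hmox1, Fth1, Ftl1, Slc48a1, Blvrb and Slc11a1 lie below every E15.5 point, the E15.5 points of Tfrc lie below all others, and Hpx is at or near 0 throughout.

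Hmox1, the enzyme that opens the heme ring, had the largest drop among the members with more than a few UMIs. Its levels were 337, 395 and 305 CPM at E15.5 after saline and 447, 415 and 188 CPM after MIA. At P14 they were 24.5, 26.2, 26.0 and 25.4 CPM after saline and 27.5 and 27.7 CPM after MIA. The E15.5 libraries spread over a wide range, E15.5 MIA 3 being the lowest, and the P14 libraries were nearly equal and did not overlap with them. The mean after saline was 346 CPM at E15.5 and 25.5 CPM at P14, after MIA the mean at E15.5 was 12.7-fold that at P14, and the fitted log2 change was -3.99 ± 0.27 (SE; edgeR adjusted p = 4.9e-09) and -3.89 ± 0.35 (adjusted p = 3.86e-07). With shared barcodes kept, P14 saline 3F and 3M stood at 37.9 and 33.5 CPM, and the change after saline was -3.71.

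Other genes of heme breakdown fell less. Slc48a1, the lysosomal heme transporter, stood at 44.5, 38.9 and 35.0 CPM at E15.5 after saline and at 23.0, 22.8, 22.3 and 24.1 CPM at P14. Its log2 change was -1.01 ± 0.15 after saline (edgeR adjusted p = 2.52e-05) and -1.15 ± 0.18 after MIA (adjusted p = 0.000129). Blvrb, the biliverdin reductase, stood at 139, 131 and 122 CPM at E15.5 after saline and at 86.9, 88.0, 97.7 and 85.3 CPM at P14, a log2 change of -0.78 ± 0.15 (adjusted p = 0.000318). In both genes the groups did not overlap in either treatment. After MIA, Blvrb changed by -0.82 ± 0.18 (edgeR adjusted p = 0.00197).

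The ferritin chains, which store the iron that heme breakdown frees, fell strongly. Ftl1 stood at 9725, 9110 and 7958 CPM at E15.5 after saline and at 11310, 8059 and 8136 CPM after MIA. At P14 it stood at 1550.5, 1915, 1870 and 1722 CPM after saline and at 1881 and 1794 CPM after MIA. No P14 library came near an E15.5 library, and the mean ratio of E15.5 to P14 was 5.06 after saline and 4.99 after MIA (log2 change at P14 -2.58 ± 0.16 and -2.53 ± 0.20, edgeR adjusted p = 1.62e-09 and 1.12e-07). Fth1 stood at 5192, 3981 and 3218 CPM at E15.5 after saline and at 1765, 1704, 1548 and 1358 CPM at P14. The mean ratio for Fth1 was 2.59 after saline and 2.22 after MIA, with log2 changes of -1.61 ± 0.21 (adjusted p = 9.16e-06) and -1.36 ± 0.27 (adjusted p = 0.000723).

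Slc11a1, the phagosomal metal transporter, stood at 172, 137 and 108 CPM at E15.5 after saline and at 77.7, 87.1, 101 and 95.1 CPM at P14. The highest P14 library lay just under the lowest E15.5 library. The log2 change was -0.86 ± 0.16 after saline (edgeR adjusted p = 0.000284) and -0.81 ± 0.20 after MIA (adjusted p = 0.00428), and after MIA the call was lost without P14 MIA 1 (adjusted p = 0.0523).

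Nqo1 was close to the limit of detection. At E15.5 it had 48, 13 and 15 UMIs after saline and 21, 20 and 1 after MIA, and at P14 it had 0, 2, 0 and 0 UMIs after saline and 0 and 1 after MIA. Per UMI sequenced, the pooled ratio of E15.5 to P14 was 24.9 after saline (95% interval 6.66 to 209, counting error only). After MIA it was 25.1 (4.27 to 1015). Of the 76 UMIs at E15.5 after saline, 48 came from saline 1. The intervals leave out the spread between libraries, so no test is read from them. With so few UMIs at P14, a fall was the only call the fit could give for Nqo1, so its fitted change is not counted with those of the other members. Hpx, the plasma heme binder, had 1 UMI in each of 5 libraries and 0 in the other 13, failed the filter on low counts and was not tested. A count of 0 in E13.5 MIA 2, the library with the fewest UMIs, allows up to 0.512 CPM.

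Tfrc, which imports transferrin-bound iron, went the other way and was lowest at E15.5. It stood at 21.2, 14.1 and 10.3 CPM at E13.5 after saline, at 3.3, 5.66 and 6.49 CPM at E15.5 and at 16.2, 16.8, 13.6 and 17.6 CPM at P14. After MIA the levels were 16.2, 16.5 and 11.2 CPM, then 3.15, 3.74 and 5.47 CPM, then 14.3 and 15.2 CPM. In both treatments the E15.5 libraries lay below all libraries of the other ages, while E13.5 and P14 overlapped after MIA and after saline. Tfrc fell from E13.5 to E15.5 by 1.55 ± 0.25 on the log2 scale after saline (edgeR adjusted p = 0.000506) and by 1.79 ± 0.27 after MIA (adjusted p = 0.000173). It rose from E15.5 to P14 by 1.43 ± 0.24 (edgeR adjusted p = 0.000108) and 1.67 ± 0.28 (adjusted p = 0.000192). The part of free RNA from other cells in these levels was not tested, and Tfrc in such cells is given further on.

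Slc40a1, the iron exporter, rose between the embryonic ages. It stood at 115, 62.4 and 72.8 CPM at E13.5 after saline and at 99.2, 149 and 151 CPM at E15.5. After MIA it stood at 123, 97.1 and 66.1 CPM and then at 135, 170 and 140 CPM, where the groups did not overlap. The log2 change was 0.69 ± 0.22 after saline (edgeR adjusted p = 0.0284) and 0.70 ± 0.22 after MIA (adjusted p = 0.0234). Each call was lost in some refits that left out 1 library, namely without saline replicate 2 or 3 of either age, and without E13.5 MIA 2 or 3 or E15.5 MIA 2, where the change lay between 0.51 and 0.94 throughout. Both calls were also lost when all cells past the filter were summed (0.62 and 0.55). Genes of other cell types or states also differed between these libraries. The border macrophage genes summed to 1489 CPM in E13.5 saline 1 and 1811 CPM in E13.5 MIA 1, the libraries with the most Slc40a1 of their age, against 327 to 798 CPM in the other 4 of that age. Without the cells with border macrophage genes, the change of Slc40a1 was 1.05 after saline (edgeR adjusted p = 0.000696) and 1.33 after MIA (adjusted p = 0.000116). The cells left out were those with at least 3 UMIs of the list at their full depth. They were 563 of 1033 microglial cells in E13.5 saline 1 and 177 of 264 in E13.5 MIA 1. Deeper cells reach this limit more easily, so depth and these genes cannot be told apart in this refit. Genes of dividing cells summed to between 1346 and 1980 CPM at E13.5 and between 383 and 1609 CPM at E15.5, and Slc40a1 differed between dividing and other cells by -0.24 ± 0.10 at E13.5 (adjusted p = 0.0612) and -0.64 ± 0.09 at E15.5. The part of dividing cells in the change was not tested. From E15.5 to P14 Slc40a1 was not called, with levels of 144, 171, 185 and 178 CPM at P14 after saline and 144 and 148 CPM after MIA (log2 change 0.12 ± 0.20, adjusted p = 0.653, and -0.23 ± 0.24, adjusted p = 0.49).

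The same members were called with shared barcodes kept, from E15.5 to P14 in each treatment. Ftl1 then stood at 2405 CPM in P14 saline 3F and 2128 CPM in 3M, and Fth1 at 1754 and 1519 CPM. The changes after saline were -2.38 for Ftl1, -1.52 for Fth1, -0.97 for Slc48a1, -0.85 for Slc11a1, -0.74 for Blvrb and 1.41 for Tfrc.

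Between E13.5 and E15.5, Slc40a1 and Tfrc were the 2 members called of 9 tested in each treatment, beside 23% of all genes after saline and 28.3% after MIA. Hmox1 stood at 238, 311 and 278 CPM at E13.5 after saline and at 328, 199 and 320 CPM after MIA, which overlaps with E15.5 (log2 change 0.34 ± 0.26, edgeR adjusted p = 0.371, and 0.36 ± 0.27, adjusted p = 0.325). After MIA the change of Hmox1 reached 0.68 (edgeR adjusted p = 0.0197) without E15.5 MIA 3. It reached 1.14 (adjusted p = 0.0474) when the same cells with border macrophage genes were left out as for Slc40a1, by a limit that depends on depth. For the ferritins the E13.5 levels ran from 3380 to 5251 CPM for Fth1 and from 7271 to 9215 CPM for Ftl1, within or near their E15.5 ranges.

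**Figure D2:**
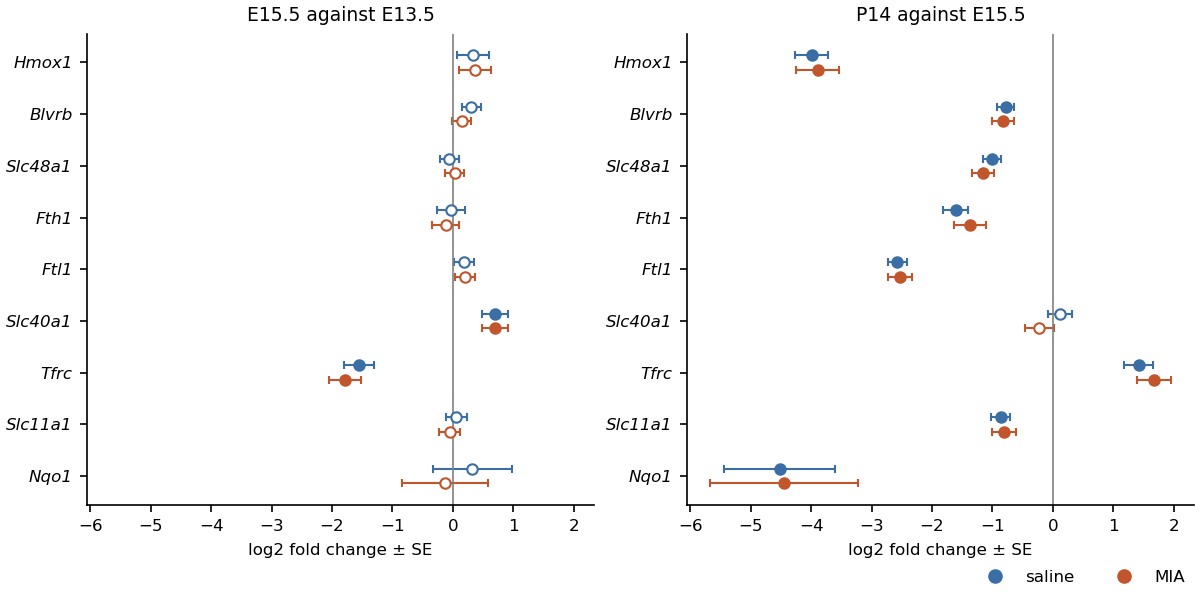
Log2 fold change with its standard error of the 9 members tested, from E13.5 to E15.5 and from E15.5 to P14, after saline and after MIA. Filled points passed an adjusted p of 0.05. Tfrc falls and then rises, Slc40a1 rises in the first step, and 6 members other than Nqo1 fall in the second.

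Summed marker levels of other cell types or states also differed between the ages. The 8 blood myeloid genes summed to between 510 and 615 CPM at E15.5 and between 54.6 and 77.4 CPM at P14. Of these 8, 3 to 5 were at 0 in a library at E15.5 and 5 at P14, so few genes carried the sums. The 8 border macrophage genes summed to between 274 and 672 and between 166 and 258 CPM, and the 7 genes of dividing cells to between 383 and 1609 and between 21.3 and 85.1 CPM. Red blood cell genes summed to between 32.5 and 121 CPM at E15.5 and between 3.79 and 83.0 CPM at P14, with up to 4 and 5 of 9 at 0. The 13 genes of neurons and neural progenitors summed to between 51.5 and 429 CPM at E15.5 and between 7.95 and 19.4 CPM at P14, and the 8 vascular genes went the other way, from between 16.4 and 31.4 CPM to between 32.2 and 43.5 CPM. Cells with border macrophage genes were left out in a refit, given with the dependence on processing. The part of the other lists in the changes of the members was not tested. At E15.5 the border macrophage and dividing cells could be examined on their own, as given further on.

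Other genes of the pathway were counted in lists. Of 16 genes tested of the Nrf2 and Bach1 axis, 9 fell and 1 rose at P14 after saline and 8 fell and 1 rose after MIA, beside 25.8% of all genes called lower after saline and 18.6% after MIA. Those with the largest changes after saline were Me1, the malic enzyme (-3.29 ± 0.42), Srxn1, sulfiredoxin (-2.61 ± 0.33), Prdx1, a peroxiredoxin (-2.07 ± 0.27), and Gsr, glutathione reductase (-1.78 ± 0.18). The list's median log2 change was -0.65 after saline and -0.70 after MIA.

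The other lists were split in direction, beside 50.4% of all genes called after saline and 36.4% after MIA. Of 8 genes of heme synthesis, 3 fell and 2 rose at P14 after saline (1 and 2 after MIA), with Cpox at 0.61 ± 0.10 after saline. Of 8 tested of heme uptake, transport and breakdown, 2 fell and 1 rose (1 and 1 after MIA), among them Hebp1, a heme-binding protein, at -2.05 ± 0.19. Of 10 tested of iron uptake, reduction and transport, 1 fell and 3 rose in each treatment, with the endosomal ferrireductase Steap3 at -1.87 ± 0.20 and the mitochondrial iron importer Slc25a37 at 1.48 ± 0.14 after saline. Of 9 tested of iron sensing, storage and clusters, 3 fell and 1 rose (2 and 1 after MIA). Between E13.5 and E15.5, where 23% of all genes were called after saline and 28.3% after MIA, the same 10 genes of iron uptake gave 3 higher and 1 lower in each treatment: Trf, transferrin, rose (1.03 ± 0.16 after saline), as did Hfe and Mcoln1, and Slc39a14, an importer of zinc and iron not bound to transferrin, fell (-1.59 ± 0.17). Of the Nrf2 and Bach1 axis, 2 fell after saline, Txnrd1 (-0.82 ± 0.17) and G6pdx (-0.68 ± 0.12), and 3 fell and 1 rose after MIA. In each treatment 1 gene of heme synthesis fell, which was Cpox after saline, and Flvcr1, a heme exporter, fell (-0.91 ± 0.22 after saline). None of the 9 tested for iron sensing was called between the embryonic ages.

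Across the 18 libraries, the gene whose log2(CPM + 1) was most like that of Hmox1 was Ftl1, with Pearson's r = 0.990, among 14448 genes. Rps16 and Rps26 (r = 0.989 each), Acp5 and Rps27a followed. Among the members, r with Hmox1 was 0.955 for Slc48a1, 0.953 for Fth1, 0.887 for Slc11a1, 0.845 for Nqo1, 0.827 for Blvrb, -0.514 for Slc40a1 and -0.583 for Tfrc. The libraries fall into embryonic and P14 groups, so these values mostly describe the difference between them. The genes most like Slc40a1 were Spata1 (r = 0.929), Fam13a, C230037L18Rik, Adap2os and Gm5431 (r = 0.915).

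The share of cells with a UMI of a gene depends on depth, so cells were thinned to 2000 UMIs and the 5367 shallower microglial cells were left out. Hmox1 was then found in 19.4% ± 2.23 of cells at E13.5 (SD, n = 6 libraries of both treatments), in 18.1% ± 3.74 at E15.5 and in 4.78% ± 0.42 at P14. The share fell from E15.5 to P14 (two-sided exact permutation test within treatments, p = 0.00286, the smallest this design allows), while E13.5 and E15.5 were not told apart (exact p = 0.455). Without thinning the shares were 56.6% ± 5.41, 49.5% ± 6.42 and 11.8% ± 2.17. As background from free RNA, neuron-like cells of the same libraries, thinned alike, held an Hmox1 UMI in 7 of 150 cells at E13.5 (4.67%, 95% Clopper-Pearson interval 1.90 to 9.38%) and in 26 of 949 at E15.5 (2.74%, 1.80 to 3.99%). The neuron-like cells were pooled over libraries, and before thinning E13.5 MIA 3 held 150 of them and E15.5 MIA 1 held 750. No other library held more than 53 at E13.5 or 163 at E15.5. The intervals thus rest largely on 1 library an age and leave out the spread between libraries. The P14 libraries held only 1 neuron-like cell, so the P14 share has no background value of its own. Thinned microglia held Hmox1 at 317 CPM at E15.5 and 25.7 CPM at P14, so the embryonic intervals are no measure of free RNA at P14. The P14 share, 4.33% to 5.45% over libraries, is not read against them.

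From E15.5 to P14, 8 of the 10 members differed in their share of cells at an unadjusted exact permutation p under 0.05, in the direction of the level for all but Slc40a1. Of all 14452 genes, 60.6% passed the same test, so the count of members is not far from that of other genes. The same 8 passed with shared barcodes kept (each exact p = 0.00286). Blvrb went from 21.4% to 15.8% of cells, Slc48a1 from 7.42% to 4.52%, Fth1 from 97.5% to 91.5%, Ftl1 from 99.8% to 94.3% (each exact p = 0.00286) and Slc11a1 from 22.6% to 15.9% (exact p = 0.00571). Ferritin UMIs were also common in neuron-like cells, in 84.0% and 84.9% of them at E13.5 and E15.5 for Fth1 and in 96.7% and 96.3% for Ftl1. These cells held Ftl1 at 3497 and 3109 CPM, above the 1753 CPM of thinned P14 microglia, so their values are no measure of free RNA at P14. Slc48a1 was found in 3.33% and 4.85% of the neuron-like cells. The P14 libraries have no background value of their own for these genes. Nqo1 was found in 0.0963% and 0.00475% of cells (exact p = 0.0714) and Hpx in none at E13.5 and E15.5.

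Slc40a1 was found in 14.2% ± 3.44 of thinned cells at E13.5, 21.3% ± 2.49 at E15.5 and 26.7% ± 2.61 at P14 (exact permutation p = 0.01 and 0.00286). Without thinning the order of the later ages turned, with 59.0% ± 3.76 at E15.5 and 53.3% ± 8.70 at P14, and its level was not called between them, so no order is read from the P14 share. In neuron-like cells Slc40a1 was found in 0 of 150 cells at E13.5 and 0.843% at E15.5. Tfrc was found in 3.21% ± 1.05, 0.783% ± 0.295 and 2.87% ± 0.196 of microglial cells (exact permutation p = 0.005 and 0.00286). The neuron-like cells held a Tfrc UMI in 2.67% at E13.5 (95% Clopper-Pearson interval 0.731 to 6.69%), an interval that holds the microglial share, and in 3.69% at E15.5 (2.58 to 5.09%), above the microglial share. A share above that of microglia may hold Tfrc RNA of the neuron-like cells themselves and does not serve as a background, so no background is read for Tfrc at E15.5 or at P14.

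Hmox1 was unevenly spread over the embryonic cells. In thinned cells, the 5% of cells richest in Hmox1 held between 59.5% and 78.7% of its UMIs in the E13.5 libraries (median 74.3%) and between 73.4% and 80.7% at E15.5 (median 79.2%). Cells with at least 5 Hmox1 UMIs made up 1.19% to 2.67% of an E13.5 library, 1.27% to 2.55% of an E15.5 library and at most 0.0285% of a P14 library. The richest cell of a library held from 20 to 54 Hmox1 UMIs at E13.5, from 53 to 94 at E15.5 and from 2 to 7 at P14.

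The variance of Hmox1 UMIs over cells was 6.50 to 16.2 times their mean at E13.5, 16.1 to 29.2 times at E15.5 and 1.01 to 1.30 times at P14, where counting alone gives a ratio near 1. This ratio also moves toward 1 as the mean falls, and the mean was 0.402 to 0.790 Hmox1 UMIs per thinned cell at E15.5 and 0.0467 to 0.0598 at P14, so the ratios of these ages cannot be compared apart from the level. The ferritins had the same order, with a variance of 9.23 to 20.2 times the mean for Fth1 at E15.5 and 1.67 to 2.11 times at P14, and 8.23 to 16.3 and 1.79 to 2.89 times for Ftl1, and their means were lower at P14 as well. For Slc40a1 the richest 5% of cells held 40.3% to 42.8% of the UMIs at E15.5, a smaller part than for Hmox1 in every library. At P14 fewer than 5% of cells held Hmox1 in most libraries, so the part held by the richest cells says nothing there.

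**Figure D3:**
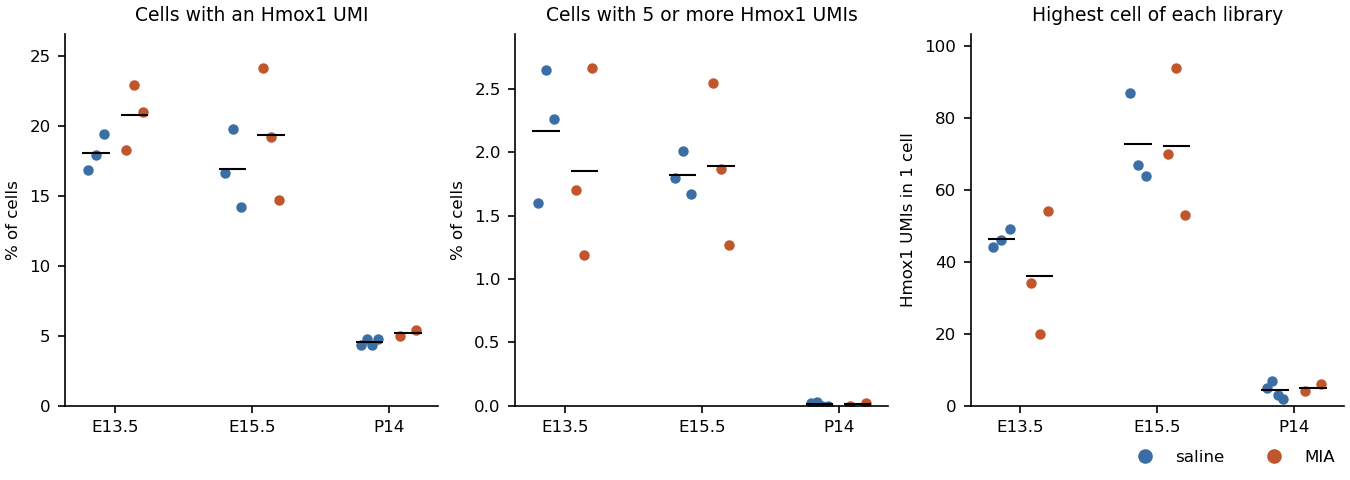
Spread of Hmox1 over microglial cells thinned to 2000 UMIs, 1 point per library: the percent of cells with an Hmox1 UMI, the percent with at least 5, and the most Hmox1 UMIs in 1 cell. Embryonic libraries hold a small class of cells with many Hmox1 UMIs that is nearly missing at P14.

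Cells with an Hmox1 UMI were then compared with cells without in the same library, with the library as a block. The classes held 1910 cells with a UMI at E13.5 (43 to 977 a library), 3616 at E15.5 (162 to 977) and 1296 at P14 (167 to 257). Hmox1 itself takes no part, since it made the classes. At E13.5, 5 of 6 members tested were higher in the cells with an Hmox1 UMI, beside 0.773% of 6723 genes called higher, and at E15.5 it was 6 of 6, beside 8.03% of 8912 genes. At P14 it was 2 of 7, beside 1.64% of 10026 genes. The ferritin chains, the heme transporter, the iron exporter and biliverdin reductase were thus at a higher level in embryonic cells with an Hmox1 UMI. Ferritin UMIs were found in nearly all cells of both classes. At E13.5 Slc40a1 was found in 20.2% of cells with an Hmox1 UMI and 12.7% of cells without, and Slc48a1 in 13.2% and 7.41%.

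Fth1 averaged 6553 CPM in E13.5 cells with an Hmox1 UMI, between 4491 and 8259 over libraries, and 3626 CPM, between 3051 and 4478, in cells without. At E15.5 the means were 6680 CPM (5605 to 7992) and 3173 CPM (2545 to 4451). At every embryonic age the classes did not overlap, and Fth1 was higher in 6 of 6 libraries, with a log2 difference of 0.84 ± 0.05 at E13.5 (edgeR adjusted p = 2.86e-30) and 1.13 ± 0.07 at E15.5 (adjusted p = 0.000283). Ftl1 averaged 10287 against 7552 CPM at E13.5 and 13245 against 7957 CPM at E15.5, with log2 differences of 0.44 ± 0.05 and 0.78 ± 0.07, both called and in 6 of 6 libraries.

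Slc40a1 averaged 175 CPM in cells with an Hmox1 UMI and 78.8 CPM in cells without at E13.5, and 221 and 124 CPM at E15.5. Its log2 difference was 1.11 ± 0.09 at E13.5 (edgeR adjusted p = 2.03e-18) and 0.82 ± 0.08 at E15.5 (adjusted p = 2.67e-07), higher in 6 of 6 libraries at each age. Slc48a1 averaged 72.7 and 39.2 CPM at E13.5 and 66.1 and 34.3 CPM at E15.5, again higher in 6 of 6 libraries (0.99 ± 0.12 and 0.95 ± 0.09, both called). Blvrb averaged 172 and 107 CPM, then 194 and 122 CPM (0.77 ± 0.10 and 0.69 ± 0.05, both called). Slc11a1 differed little, with 0.21 ± 0.08 at E13.5 (adjusted p = 0.229) and 0.17 ± 0.06 at E15.5 (adjusted p = 0.0295), a call that was lost with DESeq2, with no filter on low counts and without E15.5 saline 2, MIA 2 or MIA 3.

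At P14 the difference between these classes was smaller than at both embryonic ages for Fth1, Slc40a1, Slc48a1 and Blvrb. For Ftl1 it was near that of E13.5, and for Slc11a1 it was not smaller. The class itself also differed. Hmox1 averaged 538 CPM in P14 cells with a UMI, against 1428 CPM at E13.5 and 1682 CPM at E15.5. At P14 only 7 to 20 cells a library held at least 2 Hmox1 UMIs. The part of this in the smaller differences was not tested. Ftl1 averaged 2343 CPM in cells with an Hmox1 UMI and 1733 CPM in cells without (log2 difference 0.45 ± 0.02, edgeR adjusted p = 7.63e-74), and Fth1 1826 and 1595 CPM (0.21 ± 0.03, adjusted p = 9.91e-13), each higher in 6 of 6 libraries. Slc40a1 averaged 148 and 162 CPM (-0.14 ± 0.08, adjusted p = 0.475) and Slc48a1 19.7 and 23.6 CPM (-0.30 ± 0.21, adjusted p = 0.613), higher in 1 and 2 of 6 libraries. With shared barcodes kept, neither ferritin call held at P14, at 0.62 for Ftl1 (adjusted p = 0.0897) and 0.33 for Fth1 (adjusted p = 0.193). The share of P14 cells with an Hmox1 UMI, 4.33% to 5.45% over libraries, has no background value of its own, and the part of free RNA in this class was not tested.

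The within-library log2 ratio was compared between ages by two-sided exact permutation over 6 and 6 libraries. From E15.5 to P14 it fell by 1.31 for Slc48a1, by 0.96 for Slc40a1 and by 0.89 for Fth1 (each exact p = 0.00216), and by 0.46 for Blvrb and 0.31 for Ftl1 (each exact p = 0.00433). From E13.5 to E15.5 it was higher by 0.25 for Fth1 (exact p = 0.0281) and by 0.30 for Ftl1 (exact p = 0.0130). With shared barcodes kept, the fall from E15.5 to P14 was 0.99 for Slc48a1, 0.91 for Slc40a1, 0.79 for Fth1 and 0.31 for Blvrb (exact p at most 0.0390), while that of Ftl1 no longer passed (-0.13, exact p = 0.392) and Slc11a1, which had not passed, did (-0.38, exact p = 0.00433). The difference of Fth1 between the embryonic ages lost its call without E13.5 saline 2, saline 3 or MIA 2 or E15.5 saline 2, saline 3, MIA 2 or MIA 3, at 0.19 to 0.24. These are among 37 such comparisons in all, of which 13 had a p under 0.05 unadjusted. At P14 few cells of the class held at least 2 Hmox1 UMIs, so a fall of the ratio to P14 cannot be told apart from this change of the class.

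**Figure D4:**
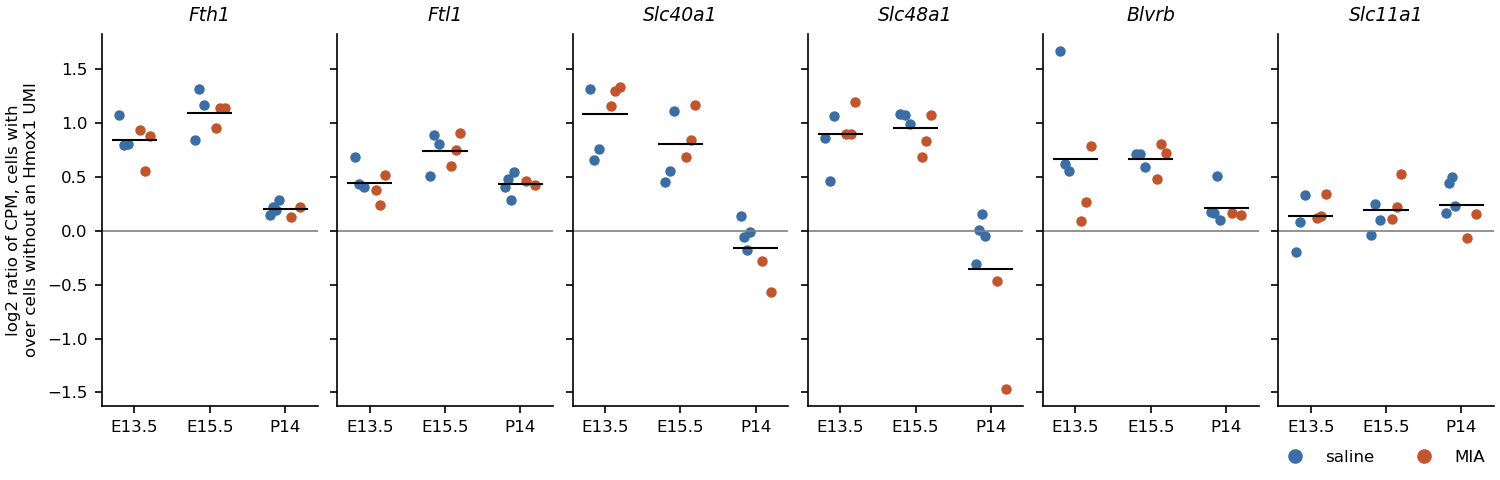
Log2 ratio of the level in cells with an Hmox1 UMI to that in cells without, within each library, for 6 members by age, with a line at the mean of the 6 libraries. At E13.5 and E15.5 all points of Fth1, Ftl1, Slc40a1, Slc48a1 and Blvrb lie above 0, and at P14 those of Slc40a1 and Slc48a1 scatter around or below it.

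Some genes of the Nrf2 and Bach1 axis were also higher in cells with an Hmox1 UMI. They were 5 of 12 tested at E13.5, beside 0.773% of all genes called higher, 10 of 13 at E15.5, beside 8.03%, and 2 of 12 at P14, beside 1.64%, with none lower. Srxn1 led at E13.5 (2.29 ± 0.25) and E15.5 (2.96 ± 0.20), followed by Gclm, a subunit of the enzyme that limits glutathione synthesis (1.97 ± 0.10 and 2.06 ± 0.16). At P14 the 2 called were Txnrd1 (0.46 ± 0.14) and Prdx1 (0.37 ± 0.06). The list's median was 0.29, 0.47 and 0.11 at the 3 ages, beside 0.00 over all genes at E13.5. Of the other lists, genes were called at E15.5 alone. They were 1 of 8 tested of heme synthesis, Alas1, which starts it (0.37 ± 0.08), and 2 of 7 of heme uptake, transport and breakdown. The latter were Blvra (0.40 ± 0.08) and Hebp1 (0.26 ± 0.08). None of 9 for iron sensing and none of 8 for iron uptake was called. Of all genes 8.03% were called higher there, so these lists are not read as going with Hmox1.

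Among genes with an average of at least 100 CPM, those with the largest log2 difference at E13.5 were Pf4 (1.63), Spp1 (1.00), Fth1, Fabp5 (0.82), Blvrb, Ftl1-ps1 (0.71), Txnrd1, Ccl3 (0.57), Cyb5a and Prdx1 (0.55 each). At E15.5 they were Spp1, osteopontin (1.35), Fabp5 (1.24), Ccl4 (1.20), Fth1, Lpl, lipoprotein lipase (1.12), Prdx1 (0.94), Mt1, a metallothionein (0.84), Ccl3 (0.82), Slc40a1 and Ftl1. At P14 they were Mt1 (1.18), Cd63 (0.79), Cd9 (0.59), Npl, Pmp22, Ldha (0.50), Ccl6, Hif1a (0.49), Pgam1 and Apoe (0.45). Within this limit on the average, members stood among the 10 at both embryonic ages, Fth1 and Blvrb at E13.5 and Fth1, Slc40a1 and Ftl1 at E15.5, and no member did at P14. Slc40a1 had a larger difference than Spp1 at E13.5 but did not meet the limit and is not ranked.

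Border macrophages, which live in the meninges and around vessels, are known for high ferroportin and biliverdin reductase. Pf4, which led at E13.5, is 1 of their 8 marker genes, so microglial cells with at least 3 UMIs of that list were compared with cells with none. The paper describes embryonic microglia that express several of these genes, so the class may hold microglia as well as macrophages. They made up 13.9% ± 5.30 of thinned cells at E13.5, 8.74% ± 3.08 at E15.5 and 3.89% ± 1.14 at P14. Members called in either direction were 3 of 7 tested at E13.5, beside 21.8% of all genes, 4 of 7 at E15.5, beside 18.3%, and 1 of 8 at P14, beside 1.19%.

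In these cells Blvrb and Slc40a1 were higher in 6 of 6 libraries at both embryonic ages. At E13.5 Blvrb averaged 239 CPM in cells with the list and lay between 78.5 and 109 CPM in cells without, and at E15.5 the means were 286 and 110 CPM (log2 difference 1.27 ± 0.11 and 1.39 ± 0.06, both called by edgeR). Slc40a1 averaged 202 and 60.7 CPM, then 237.5 and 120 CPM (1.45 ± 0.14 and 0.98 ± 0.07, both called). Hmox1 was not called at any age. At E13.5 it averaged 310 CPM in cells with the list and 250 CPM in cells without and was higher in 4 of 6 libraries, with a mean within-library log2 ratio of 0.24 and a fitted difference of the other sign (-0.06 ± 0.38, edgeR adjusted p = 0.942). It averaged 188 CPM in cells with the list and 314 CPM in cells without at E15.5 (-0.71 ± 0.20, edgeR adjusted p = 0.0724), higher in 1 of 6 libraries. Ftl1 was lower at E15.5 (-0.22 ± 0.05), Slc11a1 was higher there (0.23 ± 0.07) and Fth1 was higher at E13.5 (0.20 ± 0.06) and P14 (0.13 ± 0.03). Each of these 4 small differences lost its call in some refits with 1 library left out: Ftl1 without E15.5 MIA 1 or 3 (-0.22 and -0.19), Slc11a1 without E15.5 saline 3, MIA 1 or MIA 2 (0.20, 0.17 and 0.19), and Fth1 without E13.5 saline 1, saline 2 or MIA 1 (0.15, 0.18 and 0.14) and without P14 saline 1 or 3F (0.12 and 0.11). At the embryonic ages Blvrb and Slc40a1 were thus called higher both in cells with an Hmox1 UMI and in cells with border macrophage genes.

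From E15.5 to P14 the ratio for the border macrophage class fell by 1.13 for Blvrb (exact permutation p = 0.00216) and by 0.78 for Slc40a1 (exact p = 0.00433), and it was higher by 0.81 for Hmox1 (exact p = 0.0260) and by 0.20 for Ftl1 (exact p = 0.0303). With shared barcodes kept, the ratio fell by 0.82 for Blvrb and by 0.93 for Slc40a1, was higher by 0.38 for Ftl1 (each exact p at most 0.00433), and for Hmox1 no longer passed (0.91, exact p = 0.0952). The call of Hmox1 was also lost without P14 MIA 2 (0.69), and that of Ftl1 without E15.5 saline 2, E15.5 MIA 3, P14 saline 1, 2 or 3M or P14 MIA 2 (0.17 to 0.20). At P14 with shared barcodes kept, 5 members were called in this class rather than 1, beside 1.92% of 9783 genes.

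Dividing cells were compared in the same way at the embryonic ages, where cells with at least 3 UMIs of 7 division genes made up 40.2% ± 3.85 of thinned cells at E13.5 and 10.7% ± 8.88 at E15.5. E15.5 saline 1 stood apart with 28.8%, and the other 5 E15.5 libraries held 6.01% to 8.31% (mean 7.12%). Of 8 members tested at E13.5, 3 were lower in dividing cells, beside 13.6% of all genes called lower, and of 7 at E15.5, 5 were lower, beside 17.7%. Ftl1 (-0.43 ± 0.05 and -0.51 ± 0.04), Fth1 (-0.47 ± 0.05 and -0.29 ± 0.04) and Blvrb (-0.39 ± 0.09 and -0.36 ± 0.08) were lower at both ages, and Hmox1 (-0.94 ± 0.17, edgeR adjusted p = 0.00745) and Slc40a1 (-0.64 ± 0.09) at E15.5. The call of Blvrb at E13.5 was lost without E13.5 MIA 3 (-0.24). Hmox1 averaged 165 CPM in dividing cells and 331 CPM in other cells at E15.5 and was lower in 6 of 6 libraries. At E13.5, where it was not called, Hmox1 averaged 185 and 350 CPM and was higher in dividing cells in 1 of 6 libraries. Its ratio was not told apart between the ages (exact permutation p = 0.887). The share of dividing cells fell between the ages while the overall level of the ferritins was not called, and from E13.5 to E15.5 the ratio for dividing cells was higher by 0.16 for Fth1 (exact permutation p = 0.00216) and fell by 0.11 for Ftl1 (exact p = 0.0346). Without E15.5 saline 1 these values were 0.15 (exact p = 0.00649) and -0.15 (exact p = 0.00216), and all 5 members called at E15.5 kept their call. The call of Ftl1 was lost with shared barcodes kept (-0.050, exact p = 0.286) and without E13.5 saline 1 or 2 or E15.5 saline 3, MIA 2 or MIA 3 (-0.088 to -0.11).

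MIA was compared with saline within each age, the comparison that asks whether the injection of the dam changed the microglia. The study tested it with DESeq2, with sex of cell and sequencing batch as covariates, and reported genes changed by MIA at each age. Those covariates were not used here, so the counts below are not set against the study's. None of the members was called at any age by edgeR. The share of all genes called was 0% of 12453 at E13.5, of 13333 at E15.5 and of 13025 at P14, with 144, 63 and 474 genes at an unadjusted p under 0.05, and DESeq2 called 2, 0 and 1 genes, none of them a member. The members' log2 changes ran from -0.10 (Tfrc) to 0.28 (Nqo1) at E13.5, from -0.31 (Tfrc) to 0.18 (Slc40a1) at E15.5 and from -0.18 (Slc40a1) to 0.14 (Hmox1) at P14, and the smallest adjusted p of any member was 0.94. The value of Nqo1 at E13.5 rests on 4, 0 and 55 UMIs after MIA and 8, 16 and 14 after saline, and its mean level went the other way, at 0.371 CPM after MIA and 0.386 CPM after saline, so no direction is read from it.

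Hmox1 changed by 0.03 ± 0.21 at E13.5, 0.05 ± 0.34 at E15.5 and 0.14 ± 0.08 at P14 (edgeR adjusted p = 0.94). At P14 the saline libraries ran from 24.5 to 26.2 CPM and the MIA libraries were at 27.5 and 27.7 CPM, so that Hmox1 was the only 1 of the 8 members tested whose groups did not overlap there. Of 13022 genes tested at P14, 11.1% had groups that did not overlap, so 1 of 8 members is near the background. The share of thinned cells with an Hmox1 UMI was 5.23% ± 0.31 after MIA (n = 2) and 4.56% ± 0.25 after saline (n = 4), with an exact permutation p of 0.0667, the smallest that 2 and 4 libraries allow. The 4 count 3F and 3M, which share a replicate number, as separate libraries. With shared barcodes kept, the shares were 5.06% and 4.86% (exact permutation p = 0.4) and the difference in level was -0.03, so its sign depends on those cells. The exact p was 0.6 without thinning and 0.133 with all cells past the filter. At E13.5 and E15.5 the standard errors were larger than the changes, and 3 against 3 libraries cannot go below an exact p of 0.1.

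At E15.5 libraries with the same replicate number were taken as pairs, because of correlations in these same data. Slc48a1 was higher after MIA in 3 of 3 such pairs, and Fth1 and Tfrc were lower in 3 of 3. The other members tested were split among the pairs. Of 13330 genes tested at E15.5, 25% went the same way in all 3 pairs, so 3 of 9 members is near the background. No member was called with the replicate number as a block, and 3 pairs cannot go below an exact p of 0.25.

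The response to MIA was also compared between ages. No member and 0% of all 14452 genes was called for E15.5 against E13.5 or for P14 against E15.5 by edgeR or by DESeq2, with 104 and 159 genes at an unadjusted p under 0.05. None of the genes of the 5 pathway lists was called for MIA at any age.

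**Figure D5:**
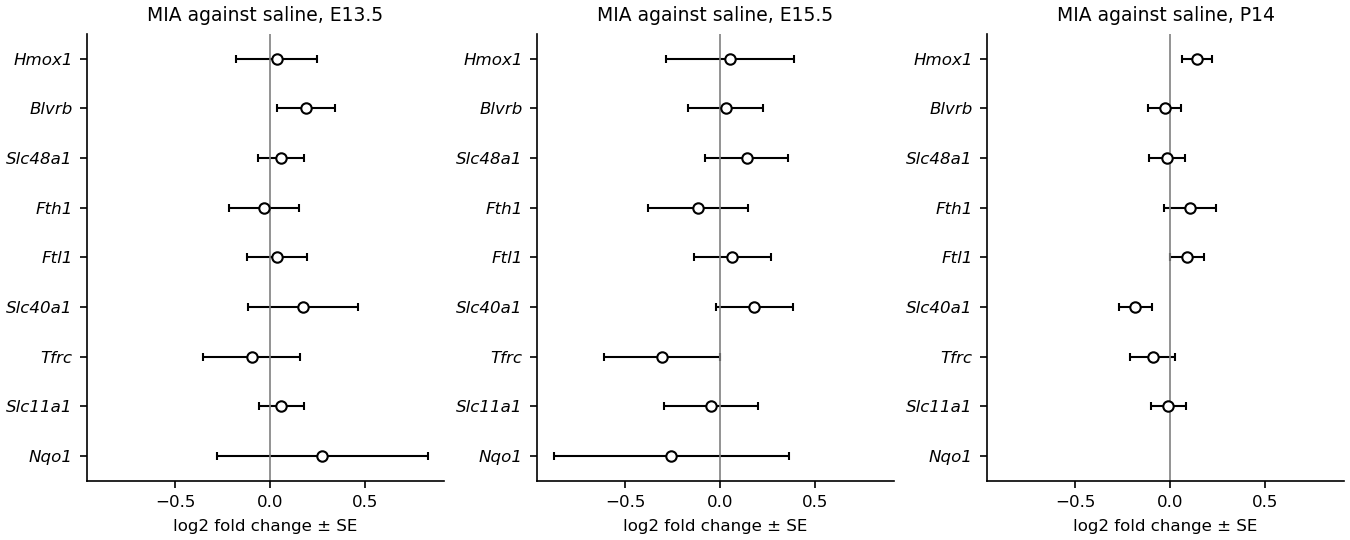
Log2 fold change with its standard error of each member tested, MIA against saline, at E13.5, E15.5 and P14. All points are open because none passed an adjusted p of 0.05, and the errors are widest for Nqo1.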

How the data were processed

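The authors deposited raw UMI counts per gene and barcode for each library, made with Cell Ranger 3.1.0 and mm10 per the submitters' processing notes and without normalization. Cells, classes and tests are those of the report. Doublets were not called. UMIs were summed per library over microglial cells and tested with edgeR 4.0.16 in R 4.3.3 (quasi-likelihood, robust, TMM, filterByExpr by group), with Benjamini-Hochberg adjustment over all genes tested and a threshold of 0.05. MIA was tested within each age, and ages in 1 fit of 18 libraries. Classes of thinned cells needed at least 10 cells a library. The filter left out Hpx everywhere, Nqo1 at P14 for MIA and in the classes, and Tfrc in the embryonic classes by Hmox1 and by border macrophage genes and in dividing cells at E15.5. DESeq2 1.42.0 was an alternative. CPM are UMIs per 1e6 UMIs of microglial cells, and intervals cover counting error only. Libraries are pools or single pups whose litters are not given, so no p-value measures the spread between litters. Tests of summed libraries measure the spread between libraries. In some tests between classes of cells, the SE was smaller than the spread of the within-library log2 ratios gives. That ratio had an SD over 6 libraries of 0.088 for Ftl1 at P14, and of 0.172 for Fth1 and 0.304 for Slc40a1 at E13.5, in cells with against without Hmox1. Very small p-values there are not read as a measure of that spread. The members, lists and classes were chosen with earlier results of these data known. The rule named all members, up to 4 called genes of each list with the largest change, the 5 genes most like Hmox1 and Slc40a1, and the 10 leading genes of cells with Hmox1. Some list genes that the rule would name are not reported here by name and are in the counts. Deviations of saline and MIA libraries with the same number correlated by 0.650, 0.269 and 0.758 at E15.5 over 7911 genes, so the numbers were taken to pair samples there. Saline 2 correlated with MIA 3 by 0.241, close to its value with MIA 2, so the pair of replicate 2 is uncertain. At E13.5 the correlations were 0.614, 0.00846 and 0.606 and at P14 0.341 and 0.0952, which did not meet the rule. The testing path was tested on simulated data.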

Additional observations from a re-analysis of the deposited data

Results flagged for a closer look

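A single library stood apart in 1 gene. At P14 after saline, Nqo1 had 2 UMIs in replicate 2, or 0.0791 CPM and 0.0285% of thinned cells, and 0 in the other 3 libraries. With the other libraries at 0, any single UMI would have set this library apart in the same way, so the usual rate of about 1 in 20 groups by chance does not hold for it and nothing is read from it.

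The other results listed are differences between ages in a within-library log2 ratio, each by a two-sided exact permutation test over 6 and 6 libraries. For cells with against without an Hmox1 UMI, P14 minus E15.5 was -1.31 for Slc48a1, -0.96 for Slc40a1, -0.89 for Fth1, -0.46 for Blvrb and -0.31 for Ftl1, and E15.5 minus E13.5 was 0.25 for Fth1 and 0.30 for Ftl1. For cells with against without border macrophage genes, P14 minus E15.5 was -1.13 for Blvrb, -0.78 for Slc40a1, 0.81 for Hmox1 and 0.20 for Ftl1. For dividing against other cells, E15.5 minus E13.5 was 0.16 for Fth1 and -0.11 for Ftl1. The share of cells in each class moved with age as well (19.4%, 18.1% and 4.78% with an Hmox1 UMI, 13.9%, 8.74% and 3.89% with border macrophage genes, and 40.2% and 10.7% dividing at the embryonic ages), and its part in these differences was not tested. The Hmox1 level in cells with an Hmox1 UMI moved too (1428, 1682 and 538 CPM), and its part was not tested either. The P14 value lies close to the floor that 1 UMI of 2000 sets for this class.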

How the results depend on the processing

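Of 1338 values of members that were called or are named in the report, refitted under the alternatives (DESeq2, another filter, thinning or class of cells, shared barcodes kept, the replicate block, each library left out), 1258 kept direction and side of the threshold, 61 lost their call, 2 gained one and 17 changed sign, of which 1 had been called. Over all members whose log2 change was not called, 158 of 1510 refitted values changed sign and 25 became called. Of the changes of sign, 16, 19 and 12 were for MIA at the 3 ages, 33 and 23 for the response to MIA between ages, and 15 for border macrophage genes at P14, so no direction is read from uncalled values. Keeping shared barcodes, and the alternatives for differences in class ratios between ages, were chosen after seeing the data. The number of members called changed as follows. For E15.5 against E13.5 it was 1 in each treatment with all cells past the filter, 3 after saline and 4 after MIA without cells with border macrophage genes (counted before thinning, here and below), and 1 to 2 after saline and 1 to 3 after MIA with a library left out. For P14 against E15.5 after MIA it fell without P14 MIA 1, which left 1 library in that group. Slc11a1 lost its call there, and so did Nqo1, which the Results do not count with the other members. For cells with an Hmox1 UMI it was 6 at E13.5 with a limit of 2 UMIs, 5 at E15.5 with DESeq2 and 5 to 6 with a library left out, and 0 at P14 with shared barcodes kept and 1 with a limit of 2 UMIs. For border macrophage genes it was 2 at E13.5 with DESeq2 or without a filter, 4 with shared barcodes kept and 2 to 3 with a library left out, 3 at E15.5 without a filter and 2 to 4 with a library left out, and at P14 it was 0 without a filter or thinned to 1000 UMIs, 5 with shared barcodes kept and 0 to 1 with a library left out. For dividing cells it was 5 at E13.5 thinned to 1000 UMIs, 4 with shared barcodes kept and 2 to 5 with a library left out, and at E15.5 6 without a filter or with shared barcodes kept, 4 thinned to 1000 UMIs and 5 to 6 with a library left out. For the share of cells it was 8 to 9 with a library left out. Among the uncalled log2 changes named in the report, those that turned sign were Slc40a1 at P14 against E15.5 (-0.041 to 0.21 after saline with a library left out, 0.035 after MIA without border macrophage cells) and Hmox1 for MIA (at E13.5 -0.68 without border macrophage cells and -0.10 to 0.26 with a library left out; at E15.5 -0.11 with all cells past the filter and -0.19 to 0.35 with a library left out; at P14 -0.034 with shared barcodes kept). In P14 cells with an Hmox1 UMI they were Blvrb (-0.030 thinned to 1000 UMIs, -0.23 with a limit of 2), Slc48a1 (0.025 with shared barcodes kept) and Slc40a1 (0.019 thinned to 1000 UMIs). The called share of cells with Slc40a1 at P14 minus E15.5 turned to -5.72 points without thinning. With the replicate block Hmox1 for MIA at E15.5 turned to -0.044, 10, 0 and 1 genes were called at the 3 ages, and no member was. Counts of all genes moved by over 1.5 times in these cases: 1933 to 4478 for E15.5 against E13.5 after saline (3324 in all) and 3073 to 5773 for P14 against E15.5 after MIA (5256) with a library left out; cells with Hmox1 at E13.5, 98 against 54 with DESeq2, 148 without a filter and 49 thinned to 1000 UMIs, at E15.5 1246 against 690 and 467 and at P14 235 against 140 and 39 (DESeq2 and thinned); border macrophage genes 1038 against 575 and 242, 1468 against 931 and 566, and 116 against 63 and 68, or 188 with shared barcodes kept; dividing cells 1853 against 924 and 1234 at E13.5 and 3287 against 1750 thinned to 1000 UMIs at E15.5; and 10 for MIA at E13.5 without E13.5 MIA 3. With a library left out, counts also moved by over 1.5 times at E13.5 for cells with Hmox1 (58 to 105) and for dividing cells (1151 to 1864). The same held for border macrophage genes at E13.5 (666 to 1089) and at P14 (73 to 110). The causes were not tested. The number of cells in the 2 smallest E13.5 libraries limits the classes there, which held 43 cells with an Hmox1 UMI at the least.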
